A study of Homo sapiens with 2 samples.

Results

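The promoters of 10 genes for proteins of the cytosolic ribosome were examined for binding of MYC: RPL3, RPL5, RPL11, RPL13A, RPL19 and RPLP0, which encode proteins of the large subunit, and RPS2, RPS6, RPS19 and RPSA, which encode proteins of the small subunit. The genes were given by name, each with 1 start site in GRCh37, and a MYC peak was assigned to a gene when its summit lay within 5 kb of that start site. All 10 genes had a peak, and 13 of the 17659 peaks in the list were assigned to them. Binding was measured by ChIP-seq, which sequences DNA fragments pulled down with a protein, in TET21 cells (SH-EP/TET21/N), a clone of a human neuroblastoma line whose MYCN transgene is switched off by doxycycline. The cells expressed wild-type MYC and had been kept in 1 µg/mL doxycycline for 7 days. The ChIP library was made with a rabbit polyclonal antibody against MYC prepared by the submitters, and the other library was input chromatin of the same kind of cells. Both came from cells with ectopic MYC, no library without it was compared, and whether the antibody also binds the cells' own MYC is not stated. There was 1 ChIP and 1 input library, so no value has a replicate error. The intervals given cover counting error of the ChIP fragments only.

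Ribosomes are built from ribosomal RNA and a matched supply of each ribosomal protein, and the genes for these proteins are transcribed at high level in growing cells. Their mRNAs characteristically begin with a tract of pyrimidines, the 5′ terminal oligopyrimidine (TOP) motif, through which their translation is regulated by nutrient signalling. MYC binds DNA as a dimer with MAX, with a preference for the E-box CACGTG, and ribosome production is among the best known processes that it promotes. MYC is also known to bind many active promoters that have no E-box.

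Promoter sequences from RefSeq (GRCh38.p14) were at hand for 8 of the 10 genes, RPL5 and RPS2 being the others. They are shown to set 3 start regions beside 3 others. RPS19, RPLP0 and RPSA had MYC peaks with a higher ratio to background than RPL3, RPS6 and RPL11. By ChIP fragments alone RPS6 exceeded RPLP0, and the counting-error intervals of the ratio overlapped between most of these genes. Each sequence runs 5′ to 3′ on the gene's strand. It goes from 80 bases before the annotated start (the first listed, where RefSeq has several) through the first 20 bases of the transcript. Capitals mark the pyrimidine tract at or near the start and, elsewhere, CGGAAG or its reverse complement. CGGAAG is the core of sites for ETS family factors such as GABP, which are known activators of ribosomal protein genes. The regions are chr19:41860175-41860274 (RPS19, plus strand), chr12:120201092-120201191 (RPLP0, minus strand), chr3:39406640-39406739 (RPSA, plus strand), chr22:39319604-39319703 (RPL3, minus strand), chr9:19380217-19380316 (RPS6, minus strand) and chr1:23691699-23691798 (RPL11, plus strand). These positions are in GRCh38.p14 and were not converted to the GRCh37 of the peaks.
RPS19: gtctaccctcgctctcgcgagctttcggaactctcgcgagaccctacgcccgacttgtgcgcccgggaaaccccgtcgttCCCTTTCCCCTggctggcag
RPLP0: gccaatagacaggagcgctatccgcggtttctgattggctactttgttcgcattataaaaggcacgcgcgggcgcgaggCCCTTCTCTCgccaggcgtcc
RPSA: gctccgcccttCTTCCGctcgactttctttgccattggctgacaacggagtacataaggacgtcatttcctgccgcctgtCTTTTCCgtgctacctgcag
RPL3: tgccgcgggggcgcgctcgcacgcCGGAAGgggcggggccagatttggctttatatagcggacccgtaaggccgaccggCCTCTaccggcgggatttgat
RPS6: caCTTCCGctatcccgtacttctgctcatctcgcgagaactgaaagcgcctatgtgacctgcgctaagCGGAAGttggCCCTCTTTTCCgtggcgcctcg
RPL11: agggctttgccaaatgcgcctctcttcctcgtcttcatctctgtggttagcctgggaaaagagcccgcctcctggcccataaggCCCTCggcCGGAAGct

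The MYC summits sat at the start sites. The strongest peak of each gene, by −log10 p, was also the one nearest to the start site in all 10 genes, and its summit lay between 6 and 180 bp from it (median 123.0 bp). All 10 genes thus had a summit within 200 bp, a distance chosen after the values had been seen. For comparison, all positions from the first to the last summit of each chromosome, 1 to 22 and X, were taken. Of these, 4.63% lay within 5 kb of a summit, 1.04% within 1 kb and 0.238% within 200 bp. Over the 10 stretches of 1 Mb centred on these start sites, the shares were 15% and 0.872%. The local share within 5 kb ranged from 4.0% around RPSA, with 4 peaks in 1 Mb, to 30.6% around RPS2, with 47 peaks. These backgrounds are positions of any kind and not promoters. The share of all promoters with a peak was not computed because no GRCh37 annotation was used here, so the count of 10 is not shown to differ from that of other active promoters.

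In 9 of the 10 genes the summit lay downstream of the start site, inside the gene, and only in RPL13A did it lie upstream. How often summits lie downstream at other promoters was not computed. RPLP0, which encodes the base of the stalk of the large subunit, had its summit 6 bp downstream of the start. RPS19, the gene most often mutated in Diamond-Blackfan anaemia, had it 53 bp downstream. The summits of RPL19, RPS2, RPSA and RPL11 followed at 90, 117, 129 and 144 bp downstream. Those farthest into the gene belonged to RPS6 at 175 bp, RPL5 at 178 bp and RPL3 at 180 bp, and RPL13A had its summit 71 bp upstream. The peak covered the start site in 9 genes, and in RPS6 it began 55 bp downstream of it. These distances depend on the single start site given per gene. RefSeq lists starts that are 149 bp apart for RPS19, 40 bp apart for RPL19 and 27 bp apart for RPL11.

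**Figure D1:**
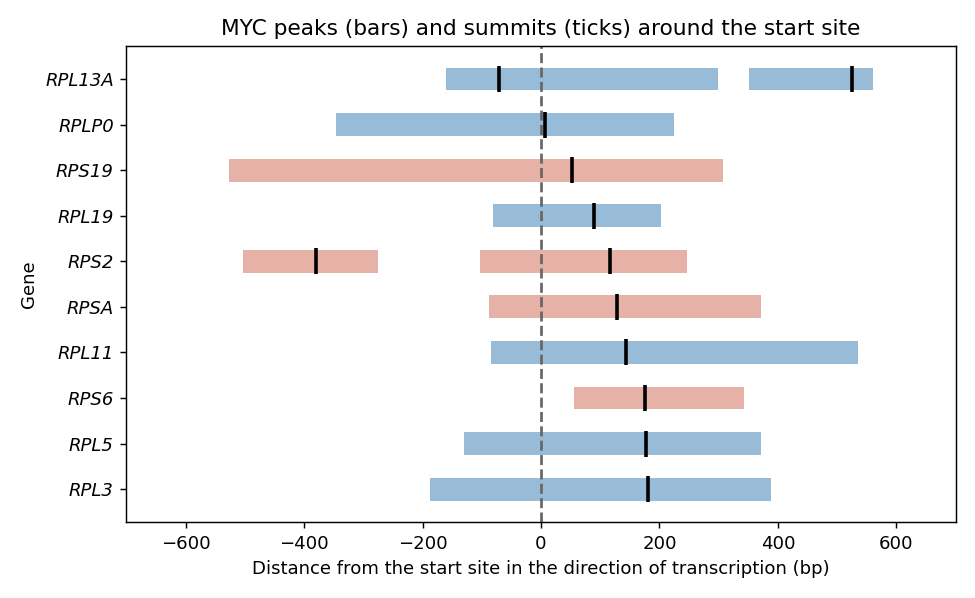
Extent (bars) and summits (ticks) of the MYC peaks with a summit within 1 kb of each start site, in bp along the direction of transcription, with large subunit genes in blue and small subunit genes in red. The strongest summit lies downstream of the dashed start site in 9 genes and 71 bp upstream in RPL13A, and the second ticks are the weaker peaks of RPL13A and RPS2.

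The genes differed in how strongly they were bound. Strength is given as the authors' fold, the ratio of the ChIP fragments over the summit to the caller's local background, each with 1 added. Its interval carries the 95% Poisson error of the ChIP fragment count and takes the background as exact. The fold ranged from 6.47 at RPL11 to 23.3 at RPL5, a 3.6-fold range, and its median over the 10 genes was 11.0, against 6.4 over all peaks. Of the 10 genes, 5 had a fold of at least 10, against 15.4% of all peaks and 18% of the 14470 bound regions that result from joining peaks no more than 1 kb apart. All 10 genes lay above the median fold of all peaks, and 9 above the median of 6.65 for the best peak of a region. The intervals of 5 genes, RPL5, RPS2, RPS19, RPLP0 and RPSA, lay wholly above the list's median. The share of all peaks with such an interval was not computed, so this count has no background.

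Among the large subunit genes, RPL5 had the strongest peak. Its product binds the 5S rRNA together with that of RPL11, and the complex is known to inhibit MDM2 when ribosome assembly fails. The peak, at 93297464 to 93297966 on chromosome 1, had 53 ChIP fragments at its summit over a background of 1.32, a fold of 23.3 (17.5 to 30.3) and a −log10 p of 65.4. It ranked 134 by fold among the 17659 peaks, and 99.2% of them had a lower fold. RPL11 had the weakest peak of the 10 genes, with 14 fragments over the same background of 1.32 and a fold of 6.47 (3.73 to 10.6). It spanned 24018185 to 24018805 on chromosome 1, and 50.7% of the peaks had a lower fold. The intervals of these partners did not overlap.

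RPLP0 had a fold of 14.1 (9.15 to 20.9) from 23 fragments over a background of 0.703, and 10.9% of all peaks had a lower background. Its peak lay at 120638707 to 120639277 on chromosome 12. RPL19, whose product contributes to a bridge between the subunits, had 21 fragments over 1.22 and a fold of 9.92 (6.31 to 14.9), just under 10, at 37356455 to 37356738 on chromosome 17. RPL13A, whose product also has a role in translational silencing outside the ribosome, had 17 fragments over 1.22 and a fold of 8.11 (4.92 to 12.7), at 49990534 to 49990993 on chromosome 19. RPL3, which encodes a protein close to the peptidyl transferase centre, had 17 fragments over 1.32 and a fold of 7.76 (4.7 to 12.2), at 39715282 to 39715857 on chromosome 22. The intervals of RPLP0, RPL19, RPL13A and RPL3 overlapped, so the counts do not settle their order.

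Of the small subunit genes, 3 of 4 exceeded a fold of 10, against 2 of 6 large subunit genes and 15.4% of all peaks. RPL19, a large subunit gene at 9.92 (6.31 to 14.9), lay just under the cutoff, so these counts do not set the subunits apart. The folds of the small and large subunit genes overlapped, at 6.98 to 15.9 and 6.47 to 23.3. RPS2, whose product lies at the entry of the mRNA channel, had 36 fragments over 1.32 and a fold of 15.9 (11.3 to 21.9), at 2014581 to 2014930 on chromosome 16. RPS19 had 30 fragments over 1.03 and a fold of 15.3 (10.5 to 21.6), in the widest peak of the 10 genes, 835 bp at 42363787 to 42364621 on chromosome 19. Their intervals overlapped, and 96.3% and 95.9% of all peaks had a lower fold.

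RPSA and RPS6 combined many ChIP fragments with a high background. RPSA, whose product is also known as the laminin receptor precursor, had 43 fragments over 2.64 and a fold of 12.1 (8.82 to 16.2), at 39448117 to 39448575 on chromosome 3. RPS6, whose product is the ribosomal substrate of S6 kinase, had 29 fragments over 3.3 and a fold of 6.98 (4.75 to 9.92), at 19379893 to 19380180 on chromosome 9. Their backgrounds exceeded those of 94.5% and 98.2% of all peaks. Both backgrounds amount to a few fragments, and their own counting error is not in the intervals. By pileup, the number of fragments alone, RPSA was second of the 10 genes and RPS6 exceeded 93.3% of all peaks, whereas by fold RPS6 exceeded 59.7%. The placement of RPS6 thus depends on the measure, and the source of its high background was not tested.

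**Figure D2:**
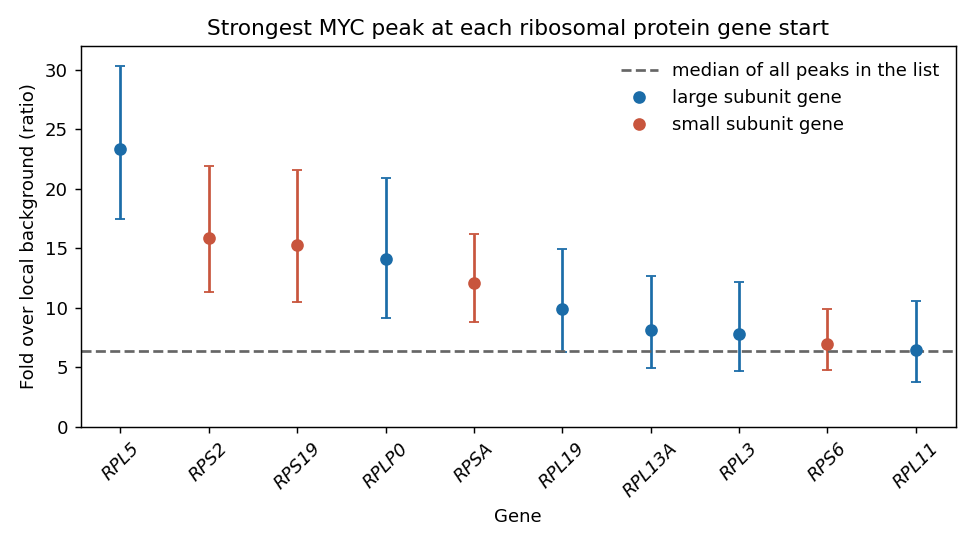
Fold over the local background (ratio) of the strongest peak at each gene, with bars for the 95% Poisson error of the fragment count and a dashed line at the median of all peaks, 6.4. The values fall from 23.3 at RPL5 to 6.47 at RPL11, and the bars of neighbouring genes overlap.

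In the order of fold, from RPL5 through RPS2, RPS19, RPLP0, RPSA, RPL19, RPL13A, RPL3 and RPS6 to RPL11, the intervals overlapped in all 9 neighbouring pairs. Of the 45 possible pairs, 9 had intervals that did not overlap, with the background taken as exact. The share of such pairs among all peaks was not computed. The interval of RPL5 lay above those of RPSA, RPL19, RPL13A, RPL3, RPS6 and RPL11. That of RPS2 lay above those of RPS6 and RPL11, and that of RPS19 above that of RPS6. By significance, all 10 genes reached the median −log10 p (10.3), against 50.3% of all peaks, and 7 of the 10 genes reached the upper quartile of the −log10 p (15.3), against 25.1% of all peaks. RPL13A, RPL3 and RPL11 lay between the median and the upper quartile.

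**Figure D3:**
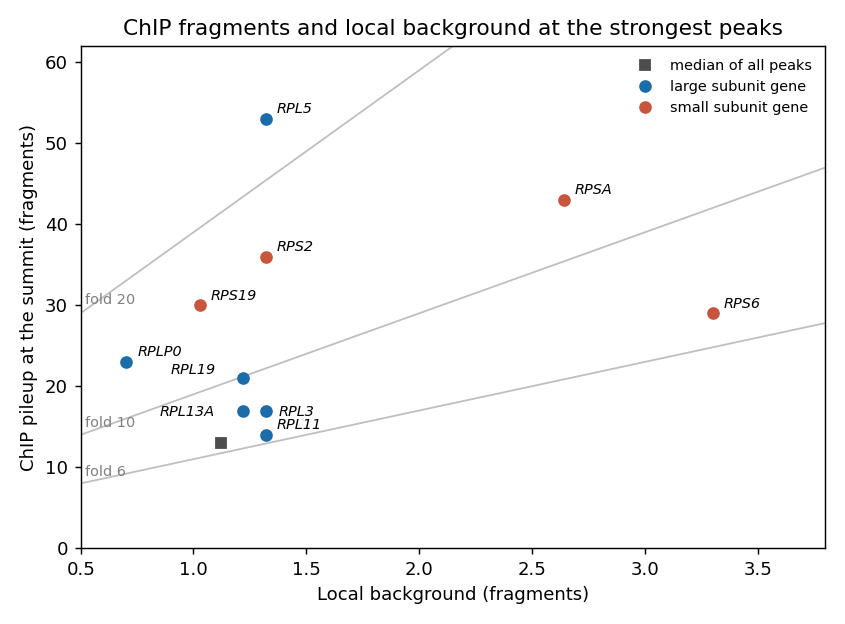
ChIP fragments at the summit against the local background, both in fragments, for the strongest peak of each gene (circles) and for the median of all peaks (square), with grey lines of equal fold. RPSA and RPS6 lie apart at backgrounds of 2.64 and 3.3, and RPL5 has the most fragments, 53.

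The pileup at the 10 genes ranged from 14 to 53 fragments (median 26.0, against 13.0 for all peaks). The background ranged from 0.703 to 3.3 (median 1.32, against 1.12 for all peaks) and exceeded the list's median at 8 genes. The peaks were also wider than the list's median peak. Their median width was 481.5 bp, against 226.0 bp for all peaks, and 8 of 10 were wider than 300 bp, against 27.6% of all peaks. In these comparisons each gene gives its strongest peak, whereas the list holds every peak, weaker ones of the same region included. A link between width and pileup was not tested. The narrowest were those of RPL19 at 284 bp and RPS6 at 288 bp. Ribosomal protein genes are known to have many processed pseudogenes, and how reads that match such copies were treated is not given in the sources used here. Its part in these values was not tested.

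**Figure D4:**
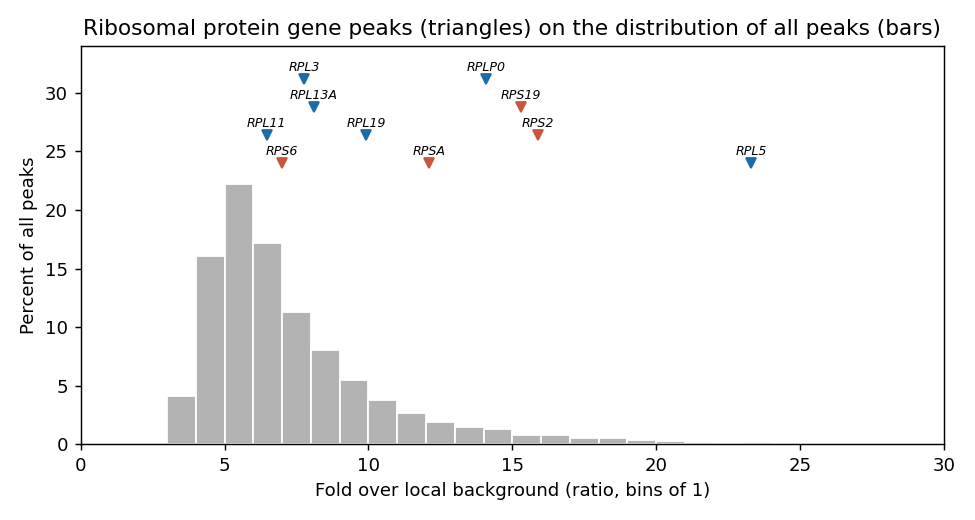
Distribution of the fold over all peaks (bars, percent of peaks in bins of 1, shown up to a fold of 30), with triangles at the fold of the strongest peak of each ribosomal protein gene, at arbitrary heights. The 10 genes lie from the centre of the distribution (RPL11, 6.47) to its upper tail (RPL5, 23.3).

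In 7 of the 10 genes the strongest peak was the only one within 5 kb, and RPS2, RPL13A and RPL19 had 1 more. The second peak of RPS2 lay 380 bp upstream, on the side of the noncoding snoRNA host gene SNHG9, and had a fold of 4.75 from 7 fragments. That of RPL13A lay 526 bp downstream, with a fold of 4.8 from 11 fragments. That of RPL19 lay 2556 bp upstream, on the side of the coding gene CACNB1, with a fold of 7.48 from 13 fragments. Each was weaker than the peak at the start site, but the intervals overlapped for RPL13A and RPL19. Another summit within 5 kb was thus present in 3 of 10 genes, against 42.3% of all summits. The list's share counts every summit of a cluster, whereas each gene counts once here, so no trait of these genes is read from it. The nearest summit outside the 5 kb window was that 5297 bp downstream of RPS2, with a fold of 5.6, and the farthest inside was the RPL19 summit at 2556 bp.

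Canonical E-boxes were found in the promoter windows of 3 of the 8 genes, RPL13A, RPL19 and RPS19. Windows ran from 250 bases before to 50 after each RefSeq start, both strands were searched, and a gene counted when any of its listed windows held the motif (11 windows in all, with RPL11, RPL19 and RPS19 listed 2 times). The stretches with CACGTG are shown because it is the preferred site of MYC, with the E-box in capitals. They are chr19:49487360-49487419 (RPL13A), chr17:39200033-39200084 (RPL19) and chr19:41860388-41860433 (RPS19), all GRCh38.p14 and plus strand.
RPL13A: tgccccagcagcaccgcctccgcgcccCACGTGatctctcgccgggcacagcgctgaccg
RPL19: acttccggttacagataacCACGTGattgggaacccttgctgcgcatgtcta
RPS19: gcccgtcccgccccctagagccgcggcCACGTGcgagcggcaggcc

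The E-box began 221 bases before the start in RPL13A and 231 bases before the upstream of the listed starts in RPL19, and at base 12 after the downstream of the listed starts in RPS19. CACGTG was held by 37.5% of the 8 genes, against 8.77% of 27305 genes, and by 25% and 7.43% when only the first listed window of each gene was read. In RPL19 and RPS19, 1 of the 2 windows held it. Of 64 matched genes in a list of 80 ribosomal protein genes, 4 held it (6.25%): these 3 and RPS28, named after its window had been seen. The folds of the 3 genes with an E-box, 8.11, 9.92 and 15.3, lay inside the range of the 5 genes without one in their windows, 6.47 to 14.1, except for RPS19. The variant CACGCG was held by 4 of the 8 genes, RPLP0, RPS6, RPS19 and RPL13A, against 13.5% of all genes. Other CANNTG forms, counted without CACGTG, were held by 3 of 8, against 70.5% of all genes. These are counts of letters in windows of another build, and where the MYC summits fall in them was not determined.

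The pyrimidine tract was common to all 8 genes. A C followed by at least 4 pyrimidines, beginning within 10 bases of the start on the sense strand, was present in 8 of 8, in 59 of the 64 ribosomal protein genes (92.2%) and in 38.4% of all genes. In the start regions printed above the tract was 11 bases long in RPS19 and RPS6, 10 in RPLP0, 7 in RPSA and 5 in RPL3 and RPL11. The tract began at base 5 of the transcript in RPL11, 2 bases before the start in RPS6 and 1 base before it in RPLP0 and RPL3. These are the first listed starts. At the other listed start the longest tract was 12 bases in RPL11 and 6 in RPS19. The ETS core CGGAAG was held by 6 of 8 genes, against 64.1% of the ribosomal protein genes and 22.6% of all genes. The windows without it were those of RPS19 and RPLP0, which had the highest folds of the 8 genes with a window. RPL5 and RPS2, with higher folds still, had no window, and a link between this motif and the fold was not tested. GGGCGG, the core of the GC box, was held by 5 of 8 (48.3% of all genes), TATAAA by RPL3 and RPLP0 (14% of all genes), and AAGATGG, part of the site for YY1, by RPL13A (7.11% of all genes). The windows held a median of 23.5 CpG dinucleotides, against 24.2 in the 64 ribosomal protein genes and 14 in all genes. The 8 genes ranged from 14.5 to 36, and the upper quartile over the windows of all genes was 28. Their GC content was ordinary, with a median of 59.2%, against 58.3% in all genes.

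**Figure D5:**
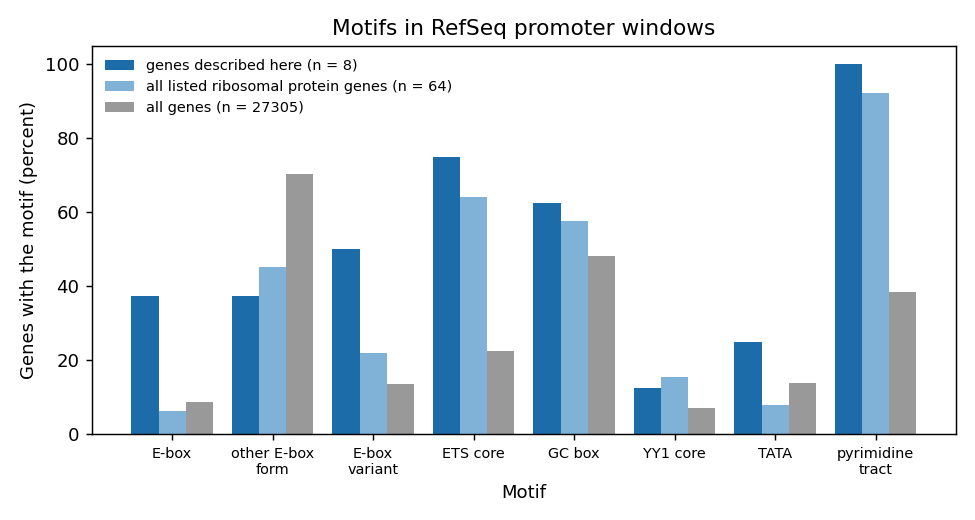
Percent of genes whose RefSeq promoter window holds each motif, for the 8 genes with a window, the 64 listed ribosomal protein genes (which include those 8) and all 27305 genes. The pyrimidine tract and the ETS core are frequent in both ribosomal protein sets, and the E-box share of 37.5% stands for 3 of 8 genes.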

How the data were processed

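The data were the authors' deposited peak list for the ChIP library. Tools listed in the submitters' processing notes, without their roles, are MACS2 2.1.0, Picard 2.7.1, SAMtools 1.3, STAR 2.5.2a and bedtools, and the build listed there is GRCh37. The rule behind the list's filtering is not given in the sources used here. The authors' deposited score is based on the −log10 q. The authors' deposited fold is a ratio to the local background, and the deposited −log10 p and −log10 q values come with each peak.

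Summits are 1-based GRCh37 positions. Pileup and background were recovered as the whole fragment count, from 3 to 699, for which fold = (pileup + 1) / (background + 1) and the Poisson tail give the deposited −log10 p; 100% of peaks matched within 0.001. This was tested on simulated data. Library depth is otherwise unknown. Intervals are exact Poisson 95% intervals on the pileup, with the background held fixed. Strands were taken from general knowledge and checked against the RefSeq promoter table for all genes but RPL5 and RPS2. No test was run, since there is 1 library. All 10 genes are named. The members and gene lists were chosen with earlier results of these data known. Analyses used Python 3.11.15, numpy 2.4.6, pandas 2.3.3, scipy 1.17.1 and matplotlib 3.10.9. RNA-seq was not analysed here, and a result beyond the 5 kb windows is not reported here.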

Additional observations from a re-analysis of the deposited data

How the results depend on the processing

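Of 20 alternatives, 18 kept a value or count within 1.5 times or within the spread among genes. This tally is no measure of robustness, because many alternatives could not change the result. The strongest peak was also the nearest and had the highest fold in all 10 genes, with its summit at most 180 bp away. The limit of 1.5 times also counts 7 genes against 10, and 2 against 3, as kept. All 10 genes had a summit within 200 bp (chosen after seeing the data), 500 bp, 1 kb, 2 kb and 10 kb, or any base of a peak within 5 kb, and 10 had a peak at or above the median −log10 p, against 50.3% of all peaks. Keeping peaks at or above the upper quartile left 7 genes, and keeping those with a fold of 10 or more left 5, by construction. The share of positions near a summit was 1.04% for 1 kb, against 4.63% for 5 kb, since the window is smaller. The number past a fold of 10 and the median fold did not change under other choices of a peak within 5 kb, since these chose the same peaks. With the strongest peak within 10 kb (chosen after seeing the data), 6 genes passed a fold of 10, against 5, and the median was 11.7, against 11.0. Restricting the E-box search to bases before the start, or to the first listed window (chosen after seeing the data), left 2 of 3 genes. Leaving out a replicate was not possible with 1 ChIP library. No paired analysis was possible because no test compared groups.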

Other observations

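Other MYC peaks lay beyond the 5 kb windows, and those of RPLP0 and RPS2 that were nearest to the start site are given here. A peak 6351 bp downstream of the RPLP0 start, on the side of the neighbouring gene GCN1, whose product acts in the response to stalled ribosomes, had 48 fragments over a background of 3.3 and a fold of 11.4 (8.46 to 15). The peak at RPLP0 itself had 23 fragments and a fold of 14.1 (9.15 to 20.9), and the intervals of the fold overlapped. By −log10 p, which defined the strongest peak within 5 kb, the peak farther away was the stronger, at 38.8 against 27.8. The peak 5297 bp downstream of RPS2 lay on the side of the neighbouring gene NDUFB10, a subunit of mitochondrial complex I, with a fold of 5.6 from 12 fragments. These peaks were not assigned to genes, because no GRCh37 annotation was used here. RPL5, RPL11 and RPS6 had no other peak within 25 kb.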
